A study of Mus musculus with 11 samples.

Results

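The cytotoxic granule and effector genes are 10 genes that arm a CD8+ T cell to kill or to signal to its target. They were chosen by name, as Gzma, Gzmb, Gzmk, Gzmm, Prf1, Nkg7, Ctsw, Ifng, Tnf and Fasl, out of 32469 gene symbols in a bulk RNA-seq count table. The table held 11 libraries from mice bearing subcutaneous Lewis lung carcinoma (LLC), a lung tumor line of C57BL/6 origin, with 5 untreated mice and 6 mice given anti-LAG-3 (aLAG3). The comparison addresses what blocking LAG-3, an inhibitory receptor of exhausted T cells, did to these genes in precursor exhausted CD8+ T cells of the tumor.

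All mice were female C57BL/6, 8 weeks of age per the study's methods, labelled wild type (WT), and carried an LLC tumor on each flank. The treated group received 200 µg per mouse of the antibody clone C9B7W by the intraperitoneal route on day 14 and again on day 16 of tumor growth, and the other group received nothing, so an isotype control antibody was not part of the comparison. The labels call the cells T cells, and the methods state that they were sorted as CD8+PD-1+Ly108+TIM-3-CD62L-. This gate keeps precursor exhausted cells and leaves out TIM-3+ terminally exhausted cells. The methods put excision of the first tumor on day 14 and of the second on day 18, whereas the series' design text gives day 21 for the second. The paper places the tumors of these 11 libraries on day 18 in both groups, and the labels of single libraries carry no day. Values after ± are SDs over the 5 untreated or the 6 treated libraries unless said otherwise. Each library was one mouse, and libraries 1 to 5 were untreated and libraries 6 to 11 anti-LAG-3.

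A cytotoxic lymphocyte stores its killing proteins in secretory lysosomes, called lytic granules, and releases them at the contact with a target. Perforin (Prf1) forms pores through which granzymes, a family of serine proteases, enter the target and cleave their substrates. Nkg7 is a granule membrane protein needed for full release, and Ctsw is a cathepsin-type protease made mainly by cytotoxic lymphocytes. Interferon-γ (Ifng) and tumor necrosis factor (Tnf) are secreted cytokines, and Fas ligand (Fasl) is a surface protein that triggers death through the receptor Fas. In tumors, exhausted CD8+ T cells lose cytokine output, and the precursor state is known to carry fewer granule transcripts than the terminally exhausted state.

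The 4 granzymes lie in 3 places of the genome, given here in GRCm38 with the gene models of GENCODE M21. Gzma (ENSMUSG00000023132.8, chr13:113093825-113100981) and Gzmk (ENSMUSG00000042385.14, chr13:113171608-113225908) are neighbours on the minus strand of chromosome 13 with 70626 bases between them. Gzmb (ENSMUSG00000015437.5, chr14:56258838-56262260) is on the minus strand of chromosome 14, in the cluster that also holds Gzmc to Gzmg and Gzmn. Gzmm (ENSMUSG00000054206.2, chr10:79689020-79695261) is on the plus strand of chromosome 10. The 250 bases before the RefSeq start of each granzyme are printed because the results turn on this family. The windows are in GRCm38.p6, at chr13:113100982-113101231 for Gzma, chr13:113180966-113181215 for Gzmk, chr14:56262335-56262584 for Gzmb and chr10:79688770-79689019 for the first of 2 starts of Gzmm, each written on the gene's own strand. The Gzmk window lies inside the longer GENCODE model of that gene. Capitals mark every match, on either strand, to letters read by T-box factors (TCACAC), RUNX (TGTGGT), AP-1 (TGANTCA) and NFAT (GGAAAA), and to the cyclic AMP element (TGACGTCA).
Gzma: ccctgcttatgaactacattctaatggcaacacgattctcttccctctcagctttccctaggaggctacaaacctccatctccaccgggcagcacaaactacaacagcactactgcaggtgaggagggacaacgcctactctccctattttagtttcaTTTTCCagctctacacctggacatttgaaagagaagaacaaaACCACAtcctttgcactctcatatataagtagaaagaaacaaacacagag
Gzmm: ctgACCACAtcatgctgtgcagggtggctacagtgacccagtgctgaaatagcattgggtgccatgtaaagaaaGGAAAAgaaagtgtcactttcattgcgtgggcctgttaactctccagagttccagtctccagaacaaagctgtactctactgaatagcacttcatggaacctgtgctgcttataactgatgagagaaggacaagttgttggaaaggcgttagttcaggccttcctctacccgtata
Gzmb: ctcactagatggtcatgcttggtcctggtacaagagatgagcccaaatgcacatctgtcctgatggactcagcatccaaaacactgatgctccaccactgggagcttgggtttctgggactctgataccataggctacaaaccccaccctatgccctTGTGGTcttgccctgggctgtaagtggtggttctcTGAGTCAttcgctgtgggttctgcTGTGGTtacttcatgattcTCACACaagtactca
Gzmk: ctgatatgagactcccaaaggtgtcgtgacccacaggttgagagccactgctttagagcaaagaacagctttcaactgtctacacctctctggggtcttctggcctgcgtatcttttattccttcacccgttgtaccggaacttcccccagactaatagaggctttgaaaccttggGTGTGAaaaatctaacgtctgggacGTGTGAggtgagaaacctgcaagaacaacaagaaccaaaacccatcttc

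The Gzma window held 1 RUNX match and 1 NFAT match, the same pair as the printed Gzmm window. The window before the second Gzmm start held 1 T-box match and neither RUNX nor NFAT letters. The Gzmb window held 1 T-box, 2 RUNX and 1 AP-1 match, and the Gzmk window held 2 T-box matches. None of these matches overlapped another. Such short words are common: of 32851 RefSeq promoter windows of this length, 12.3% held the T-box letters, 14% the RUNX letters, 6.75% the AP-1 letters, 20.4% the NFAT letters and 1.55% the cyclic AMP element. A promoter was found for 9 of the 10 genes. The RUNX letters were also in the Nkg7 and Prf1 windows, and the NFAT letters in the Fasl and Tnf windows. The T-box letters were also in the Nkg7 window, and the Ifng window held no match.

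Total counts per library were 317449 to 1271063 in the untreated mice and 313524 to 1901374 in the treated mice, so that a floor of 3 counts stood at 1.58 to 9.57 CPM. CPM were taken on total counts for these floors and the marker sums, and on TMM-scaled library sizes for the member and related genes. The CD8 T cell markers summed to 4846 to 5141 CPM without and 4880 to 5388 CPM with anti-LAG-3, led by Cd8a, and Havcr2, which encodes TIM-3, had 0 to 7 counts in any library. Of the NK cell markers, Klra8 was at 0 in every library, Ncr1 had at most 1 count and Klrb1c at most 3 counts, and the 7 markers together gave 31.4 to 81.9 CPM in untreated and 14.4 to 54.7 CPM in treated mice, mostly Fcer1g. The 10 myeloid markers summed to 22.1 to 58.3 CPM in untreated and 24.8 to 163 CPM in treated libraries, the highest being library 10. Of the neutrophil markers, S100a8, S100a9 and Retnlg were at 0 throughout, and Csf3r gave at most 3.15 CPM untreated and 3.55 CPM treated. Of the mast cell markers, Cpa3 and Mcpt4 were at 0 throughout. That list summed to 3.15 to 37.0 CPM in untreated and 16.3 to 45.2 CPM in treated libraries, mostly Kit. The libraries carried 3 barcode numbers in their titles, with barcode 9 on libraries 1, 3, 5, 6, 7 and 9, barcode 8 on libraries 4, 8, 10 and 11, and barcode 10 on library 2. The titles also hold an S number, whose meaning the labels do not give, and libraries 2, 3 and 10 share one of these numbers, as do libraries 4 and 5.

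No member passed the test between anti-LAG-3 and untreated mice. After Benjamini-Hochberg adjustment of edgeR's quasi-likelihood test over 6949 tested genes, 0 of 10 members had an adjusted p under 0.05, against a background of 0% of all tested genes, and the adjusted p was 0.9996 for each member. The count was also 0 with edgeR's likelihood ratio test, with DESeq2 and with limma voom. At an unadjusted p under 0.05, 2 of 10 members were called, both lower with anti-LAG-3, where 3.71% of tested genes were called in either direction, 2% lower and 1.71% higher. These were the granzymes Gzma and Gzmm. The log2 fold change was below 0 for 5 of 10 members and for 48.9% of tested genes, and the median was -0.095 over the members and 0.0041 over all tested genes. The groups overlapped for every member, and 0.489% of tested genes had groups that did not overlap. In bulk libraries, fewer cells that express a gene and less RNA per cell cannot be told apart. The p-values measure the spread between these libraries, each of a single mouse.

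**Figure D1:**
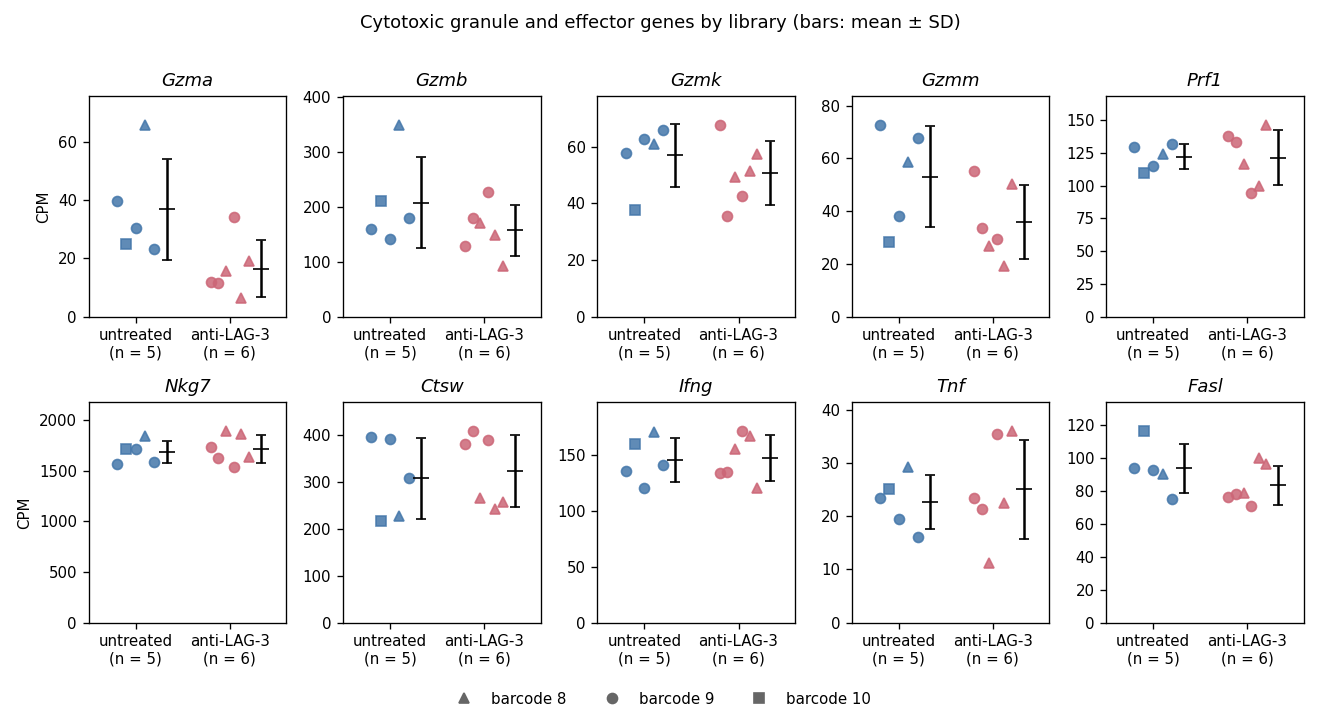
CPM (linear axis from 0) of each of the 10 genes in every library, untreated (blue) and anti-LAG-3 (red), with marker shapes for the barcode number in the library title and black bars for the mean ± SD. Gzma is the gene with most treated libraries, 5 of 6, below the lowest untreated library, whereas Prf1, Nkg7, Ifng and Ctsw have nearly equal means in both groups.

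Among the granzymes, Gzma, a tryptase-type granzyme, had the lowest log2 fold change of the 6949 genes that passed the filter on low counts. The untreated libraries 1 to 5 had 39.8, 25.1, 30.5, 65.8 and 23.2 CPM, from 8 to 51 counts each. The treated libraries ran from 6.44 CPM in library 10 through a median of 13.7 CPM to 34.3 CPM in library 9, from 2 to 29 counts each. The 2 counts of library 10 were under its 3-count floor of 9.57 CPM. Library 9 was thus the only treated library inside the untreated range, and the other 5 of 6 lay below the lowest untreated value. Gzma averaged 36.9 ± 17.4 CPM in the untreated and 16.5 ± 9.72 CPM in the treated libraries. The log2 fold change was -1.13 (SE 0.308, 95% interval -1.76 to -0.50), or 0.458 of the untreated level with an interval from 0.295 to 0.709. Its unadjusted p in edgeR's quasi-likelihood test was 0.00109, rank 4 of the tested genes, and it did not pass the adjustment. Gzma entered the test through the untreated group, since 5 of 5 untreated but only 2 of 6 treated libraries reached the filter's cutoff of 17.7 CPM. Without a filter on low counts its adjusted p in the same test was 0.0443 among 24024 genes, where 7 genes were called, against an adjusted p of 0.9996 with the filter, and its log2 fold change ranked 2621 from the lowest there. It ranked 33 of 9071 genes in barcode 9 alone and 4 of 7819 genes without library 4.

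Leaving out single libraries kept the sign of Gzma, with log2 fold changes from -1.52 without library 9 to -0.92 without library 4. Within barcode 9, with 3 libraries in each group, Gzma averaged 31.2 CPM in untreated and 19.2 CPM in treated mice. Within barcode 8, the 1 untreated library had 65.8 CPM and the 3 treated libraries averaged 13.8 CPM. The difference had the same sign in both barcodes. The one S number of the titles found in both groups held untreated libraries 2 and 3 at 25.1 and 30.5 CPM. It also held treated library 10 at 6.44 CPM, under its 3-count floor. Genes listed as markers of TIM-3+ terminally exhausted cells, which the gate leaves out, summed to 125 to 154 CPM in untreated libraries. They summed to 104 to 159 CPM in treated libraries. Most of the sum was Cx3cr1, with means of 80.5 and 78.4 CPM, beside 6.44 and 3.30 CPM of Havcr2. The sum thus says little about cells with TIM-3 RNA, and the part of such cells in the Gzma values was not tested. Library 10, with the fewest Gzma counts, also had the highest myeloid sum, and the part of those cells was not tested.

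Gzmm, a granzyme that cleaves after methionine or leucine, was the other member with an unadjusted p under 0.05. Libraries 1 to 5 had 72.7, 28.2, 38.1, 58.5 and 67.8 CPM. The treated libraries ran from 19.3 CPM in library 10 through a median of 31.5 CPM to 55.1 CPM in library 6. All 6 treated libraries lay below the untreated median of 58.5 CPM, and 3 of 5 untreated libraries lay above every treated one. Gzmm averaged 53.1 ± 19.2 CPM in the untreated and 35.8 ± 14.0 CPM in the treated libraries, with a log2 fold change of -0.56 (SE 0.233, 95% interval -1.04 to -0.080). The unadjusted p in edgeR's quasi-likelihood test was 0.0239, rank 122. Leaving out single libraries gave log2 fold changes from -0.76 without library 6 to -0.37 without library 1. The unadjusted p in the same test was 0.163 without library 1, 0.0601 without library 5 and 0.0531 without library 9, and under 0.05 without any other one.

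Gzmb, the main pro-apoptotic granzyme, cuts caspases and Bid in the target. Its untreated libraries 1 to 5 had 159, 210, 141, 348 and 180 CPM, and its treated libraries had 91.2 CPM at the lowest, a median of 159 CPM and 227 CPM at the highest. Library 4 alone stood above all treated libraries, as it did together with library 1 for Gzma. Gzmb averaged 208 ± 82.9 CPM in the untreated and 157 ± 46.5 CPM in the treated libraries, and the log2 fold change was -0.29 (SE 0.191, 95% interval -0.68 to 0.10). It was -0.046 without library 4, and 0.16 among the 6 libraries of barcode 9 alone. It was -0.43 without library 9 and also without library 3, where edgeR's quasi-likelihood test gave unadjusted p-values of 0.0322 and 0.0428, and the unadjusted p was 0.0300 with no filter on low counts. The direction of Gzmb therefore depended on which libraries were compared.

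Gzmk, a granzyme of early effector and precursor exhausted CD8+ T cells, had 57.8, 37.6, 62.7, 60.9 and 66.0 CPM in libraries 1 to 5. The treated libraries ran from 35.5 CPM through a median of 50.4 CPM to 67.7 CPM. Both the lowest and the highest of the 11 libraries were treated ones. Gzmk averaged 57.0 ± 11.2 CPM in the untreated and 50.7 ± 11.3 CPM in the treated libraries, with a log2 fold change of -0.25 (SE 0.181, 95% interval -0.62 to 0.13). It was -0.41 without library 6, where edgeR's quasi-likelihood test gave an unadjusted p of 0.0353, and -0.11 without library 7. The interval leaves room for a fall to 0.651 of the untreated level and for a rise to 1.09 times that level. The gene Esm1, which overlaps Gzmk on the opposite strand, had 0 to 2 counts in any library.

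**Figure D2:**
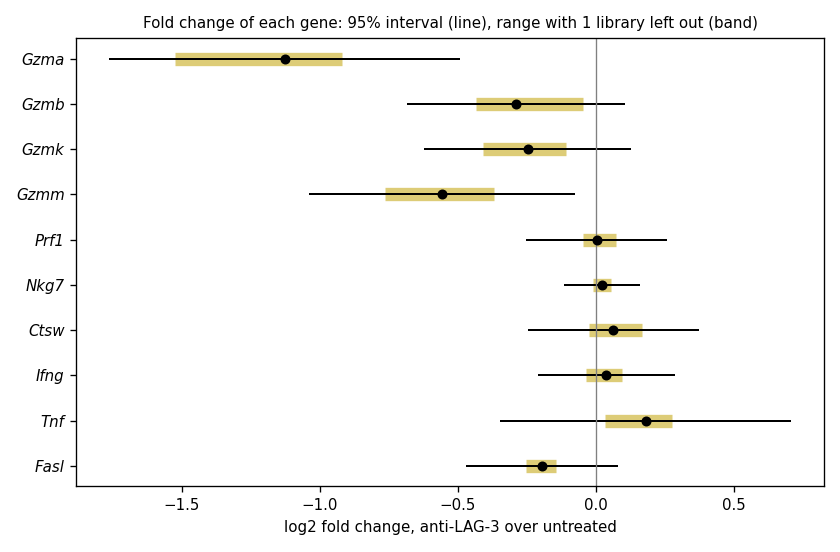
Log2 fold change of anti-LAG-3 over untreated (horizontal axis) for the 10 genes (vertical axis). Points are the fitted values from all 11 libraries, lines their 95% intervals, and bands the range of the value when each library was left out in turn. The intervals of Gzma (-1.76 to -0.50) and Gzmm (-1.04 to -0.080) lie below 0 before adjustment, and the other 8 span 0.

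The make-up of the granzyme counts was also compared as shares, which do not depend on the scaling between libraries. The 4 granzymes together gave 70 to 497 counts per library. Gzmb made up 57.7% ± 9.32 (SD, n = 5) of them in untreated and 59.7% ± 11.5 (SD, n = 6) in treated mice. Gzmk made up 16.8% ± 4.87 and 20.0% ± 5.93, and Gzmm 15.3% ± 5.59 and 14.1% ± 6.35. Gzma made up 10.2% ± 2.44 of the untreated and 6.13% ± 2.85 of the treated granzyme counts. The Gzma share ran from 6.88% to 12.3% without treatment and from 2.86% to 10.3% with it, so the groups overlapped here too. Depth bounds these shares: in library 10 the 2 Gzma counts among 70 granzyme counts gave 2.86% with an exact (Clopper-Pearson) 95% interval of 0.348% to 9.94%, and in library 7 the 22 among 497 gave 4.43% with an interval of 2.79% to 6.63%. These intervals and the 3-count floors cover counting error only, since PCR copies were counted as reads.

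**Figure D3:**
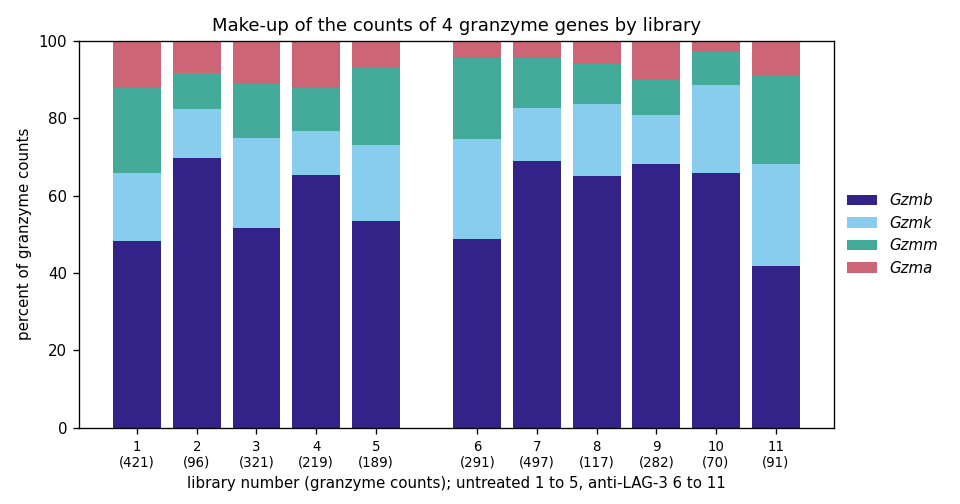
Percent of the summed counts of Gzmb, Gzmk, Gzmm and Gzma taken by each gene (vertical axis, 0 to 100%) in every library (horizontal axis, number of granzyme counts in brackets), untreated on the left and anti-LAG-3 on the right. Gzmb takes the largest share in each library, from 41.8% to 69.8%, and the Gzma share is 2.86% to 12.3%.

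The other granule genes had nearly equal mean levels in both groups. Prf1 (ENSMUSG00000037202.6, chr10:61297833-61304680, plus strand), the pore former, had 130, 110, 115, 124 and 132 CPM in libraries 1 to 5. Its treated libraries ran from 94.5 CPM through a median of 125 CPM to 146 CPM. The treated libraries spread around the untreated ones on both sides, with 2 below and 3 above the untreated range. Prf1 averaged 122 ± 9.53 CPM in the untreated and 122 ± 21.3 CPM in the treated libraries. The log2 fold change was 0.0034 (SE 0.122), and its 95% interval of -0.25 to 0.25 bounds a difference at between 0.842 and 1.19 times the untreated level. The sign of so small a value changed with the setting.

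Nkg7 (ENSMUSG00000004612.9, chr7:43437073-43438249, plus strand) was the most abundant and the most tightly bounded member. Libraries 1 to 5 had 1566, 1718, 1720, 1840 and 1583 CPM, and the treated libraries ran from 1538 CPM through a median of 1682 CPM to 1892 CPM. Both groups covered nearly the same range. Nkg7 averaged 1685 ± 113 CPM in the untreated and 1714 ± 141 CPM in the treated libraries, with a log2 fold change of 0.023 (SE 0.0648). The 95% interval of -0.11 to 0.16 limits any difference to between 0.926 and 1.11 times the untreated level.

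Ctsw (ENSMUSG00000024910.5, chr19:5465043-5468507, minus strand) had 395, 216, 391, 227 and 309 CPM in libraries 1 to 5. Its treated libraries ran from 241 CPM through a median of 323 CPM to 408 CPM. Ctsw averaged 308 ± 86.0 CPM in the untreated and 323 ± 76.5 CPM in the treated libraries, with a log2 fold change of 0.064 (SE 0.149, 95% interval -0.24 to 0.37). Within both groups the values fell into a higher and a lower set. The split followed the barcode number: the 6 libraries of barcode 9 had 309 to 408 CPM and the 5 libraries of barcodes 8 and 10 had 216 to 265 CPM, with no overlap.

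That barcode comparison was made after these values were seen. In a fit with treatment as a term, Ctsw was higher in barcode 9 by 0.67 on the log2 scale (SE 0.0945), with 379 ± 35.5 CPM over the 6 libraries against 241 ± 20.2 CPM over the 5 others. By edgeR's quasi-likelihood test its adjusted p was 0.00062, rank 2 of 6949 genes. Of all tested genes 14, or 0.201%, passed this comparison, all higher in barcode 9, and 1.02% had barcode sets that did not overlap. That count ran from 4 without library 4 to 25 without library 2 and was under 10 without any one of libraries 3, 4, 6, 7, 8, 10 and 11, and Ctsw passed in all 11 of these fits. Ctsw was the only member among the 14, and the adjusted p of the other 9 members in this test was at least 0.677. The libraries of barcode 9 were also the 6 deepest, with at least 566144 counts against at most 451465, so barcode and depth cannot be told apart. With the log2 total count as a further covariate the Ctsw difference was 0.38, and the adjusted p in the same test 0.990. Fibp, which overlaps Ctsw on the opposite strand, averaged 29.8 ± 8.22 CPM in barcode 9 and 20.4 ± 11.6 CPM in the others, with a log2 difference of 0.62 (adjusted p 0.756, edgeR's quasi-likelihood test). Each barcode set held treated and untreated mice. Within barcode 9 Ctsw averaged 365 CPM in untreated and 392 CPM in treated mice.

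**Figure D4:**
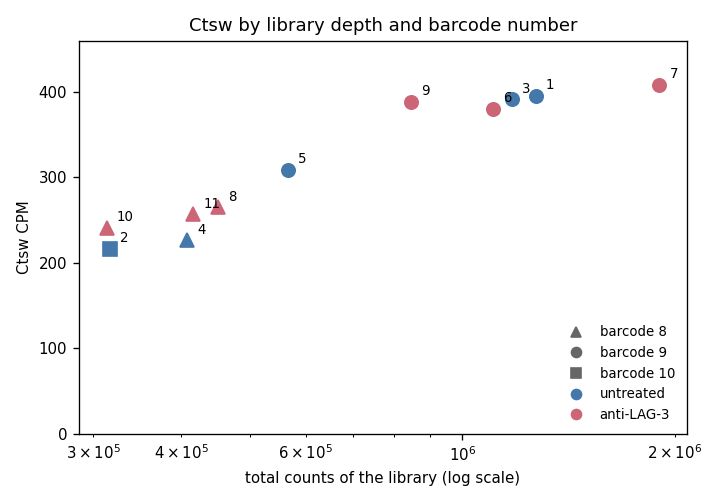
Ctsw in CPM (vertical axis, from 0) against the total counts of the library (horizontal axis, log scale), with library numbers, colors for the treatment and shapes for the barcode number. The 6 barcode 9 libraries are the deepest and lie at 309 to 408 CPM, above the 5 others at 216 to 265 CPM, and treated and untreated mice are found in both sets.

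Of the cytokines, Ifng (ENSMUSG00000055170.4, chr10:118441046-118445892, plus strand), which raises antigen presentation in tumor cells, had 136, 160, 120, 171 and 141 CPM in libraries 1 to 5. The treated libraries ran from 120 CPM through a median of 145 CPM to 171 CPM. Both groups spanned almost the same values. Ifng averaged 146 ± 19.9 CPM in the untreated and 147 ± 20.7 CPM in the treated libraries, with a log2 fold change of 0.039 (SE 0.119, 95% interval -0.21 to 0.28). Of the 50-base stretches of Ifng transcripts, 19.9% also occur in Gm49751, a gene model on the same strand that was not analysed here, so reads from those stretches are uncertain.

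Tnf (ENSMUSG00000024401.14, chr17:35199381-35202007, minus strand), which can kill or inflame target tissue, was the least abundant member per length. Libraries 1 to 5 had 23.4, 25.1, 19.5, 29.2 and 16.1 CPM, and the treated libraries ran from 11.2 CPM through a median of 23.0 CPM to 36 CPM. The treated values spread to both sides of the untreated ones, from 5 to 41 counts. Tnf averaged 22.7 ± 5.09 CPM in the untreated and 25 ± 9.39 CPM in the treated libraries, with a log2 fold change of 0.18 (SE 0.255). Leaving out single libraries gave values from 0.033 without library 9 to 0.28 without library 8. The 95% interval of -0.34 to 0.70 is wide, and it includes values from 0.789 to 1.63 times the untreated level.

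Fasl (ENSMUSG00000000817.10, chr1:161780689-161788495, minus strand), the death ligand, had 93.8, 116, 92.3, 90.2 and 75.0 CPM in libraries 1 to 5. The treated libraries ran from 70.9 CPM through a median of 78.2 CPM to 99.7 CPM. All but the lowest treated library were inside the untreated range, and 4 of 6 lay below the untreated median. Fasl averaged 93.4 ± 14.7 CPM in the untreated and 83.1 ± 11.8 CPM in the treated libraries, with a log2 fold change of -0.19 (SE 0.132, 95% interval -0.47 to 0.078).

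Levels of different genes were compared as CPM per kilobase of exon, averaged over the 11 libraries. The methods add a barcode to an end of the cDNA by PCR before it is fragmented. Counts may therefore not scale with exon length, and the order per kilobase is uncertain. Nkg7 led with 1931 ± 140 (SD), followed by Ctsw with 255 ± 62.2, Gzmb with 125 ± 46.8 and Ifng with 121 ± 16.0. Prf1 with 47.1 ± 6.28, Fasl with 45.3 ± 7.01, Gzmk with 39.2 ± 8.19, Gzmm with 33.9 ± 14.0, Gzma with 25.6 ± 16.7 and Tnf with 14.6 ± 4.56 followed. Nkg7 was above Ctsw, and Ifng above Prf1, in 11 of 11 libraries, and Ctsw was above Gzmb in 10 of 11. Per kilobase, Gzmb and Ifng did not differ beyond their spread, with Gzmb higher in 5 of 11 libraries. Prf1 was above Fasl in 7, Gzmm above Gzma in 7 and Gzma above Tnf in 7. By group means, 2 pairs of neighbours changed places per kilobase, all within their spread. Gzmb stood at 145 and Ifng at 120 in untreated mice against 110 and 122 in treated mice. Prf1 stood at 47.3 and Fasl at 48.2 against 47.0 and 42.9. In CPM neither pair changed places. Gzmb and Ifng were at 208 and 146 CPM in untreated and 157 and 147 CPM in treated mice. Prf1 and Fasl were at 122 and 93.4 CPM in untreated and 122 and 83.1 CPM in treated mice. Gzma averaged 36.7 ± 17.3 per kilobase in untreated mice, above the 13.8 ± 3.10 of Tnf, whereas in treated mice the values were 16.4 ± 9.66 and 15.3 ± 5.73.

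The members differed in how much they varied between libraries of the same group. Spread was measured as the chi-square of the counts within groups per degree of freedom. Counting error alone, without PCR copies, would give a value near 1. Gzmb reached 13.8, Ctsw 11.2, Nkg7 5.97, Gzma 4.28 and Gzmm 4.04, against a median of 1.46 over all 6949 tested genes. Among the tested genes nearest in level, Gzmb stood at percentile 99, Gzma at 98.5, Gzmm at 98.0 and Ctsw at 95.5. Gzmk was at percentile 79.6, Nkg7 at 65.7, Ifng at 61.7, Prf1 at 51.7, Tnf at 51.2 and Fasl at 17.4. The granzymes Gzma, Gzmb and Gzmm, and Ctsw, thus varied more between libraries of a group than most genes of their level. The cytokines, perforin and Fasl lay in the middle of such genes or below. This measure does not separate the mouse from the barcode or the depth of its library.

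The members did not vary as one block across libraries. Over the 45 pairs of members, Pearson's r of log2 CPM across the 11 libraries was above 0 for 22 pairs and below 0 for 23 pairs, from -0.70 between Prf1 and Ifng to 0.75 between Gzmb and Ifng (Spearman's rho 0.80). Prf1 went with Gzmm (r = 0.73). For Gzma, r was 0.57 with Gzmb, 0.52 with Gzmm and 0.19 with its neighbour Gzmk, and after centring each gene on its group means these were 0.44, 0.30 and 0.0017. These are descriptions over 11 libraries that differ in depth and barcode, neither of which was removed. The genes most like the mean of the members were Plxnc1, a semaphorin receptor, with r = 0.90 over the 11 libraries, then Gm6813 (r = 0.90), the glycyl-tRNA synthetase gene Gars (r = 0.89), the splicing factor gene Srsf10 (r = 0.87) and the dynein light chain gene Dynlt1b (r = 0.84). Spearman's rho was 0.84 to 0.85 for the first 4 of these genes and 0.52 for Dynlt1b. They were picked as the highest r among all tested genes outside the members. How high the top r would be by chance was not tested.

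A further 6 lists of genes around the members were read the same way, with 69 of 92 listed genes tested. At an adjusted p under 0.05, 0 of these 69 were called in edgeR's quasi-likelihood test, and at an unadjusted p under 0.05, 3 were called, all lower, beside 2% of all tested genes. Of the other granzymes and the proteins that process or block granzymes, 7 of 12 were tested, their median log2 fold change was 0.027, and 0 had an unadjusted p under 0.05. Serpinb9, the inhibitor of granzyme B, averaged 333 ± 27.2 CPM untreated against 295 ± 31.8 CPM treated, a log2 fold change of -0.18 (95% interval -0.37 to 0.014). Serpinb6b, a related serpin, had a log2 fold change of -0.17 (95% interval -0.38 to 0.041). Cst7, an inhibitor of the granzyme-processing cathepsin C, was the most abundant of the list with 513 CPM and a log2 fold change of 0.056. Gzmc, Gzmd, Gzme, Gzmf, Gzmg and Gzmn had 0 to 45 counts in any library, Gzmn 0 in all of them, and since these genes share up to 21.9% of their 50-base stretches with others their values are uncertain.

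Of the genes for granule matrix, membrane and exocytosis, 15 of 18 were tested, their median log2 fold change was -0.014, and 0 had an unadjusted p under 0.05. Srgn, which encodes the proteoglycan that packs granzymes, averaged 1234 ± 143 CPM untreated against 1249 ± 139 CPM treated, a log2 fold change of 0.013 (95% interval -0.15 to 0.18). Lamp1, a granule membrane protein used as a mark of degranulation, had a log2 fold change of -0.26 (95% interval -0.63 to 0.10). Unc13d, which primes granules for fusion, had -0.22 (95% interval -0.56 to 0.11), and Ctsb, a lysosomal cathepsin, had 0.042.

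Of the other effector cytokines and death ligands, 7 of 12 were tested, 6 with a log2 fold change above 0, with a median of 0.11 and none at an unadjusted p under 0.05. Csf2, which encodes GM-CSF, averaged 34.2 ± 16.3 CPM untreated against 64.3 ± 63.6 CPM treated, a log2 fold change of 0.65 with a wide 95% interval of -0.17 to 1.48. Lta, a TNF-family cytokine, had 0.32 (95% interval -0.13 to 0.77). Ltb, its membrane partner, had 373 ± 31.3 and 404 ± 27.0 CPM, and Tnfsf11, which encodes RANKL, had 159 ± 51.2 and 185 ± 46.1 CPM, with log2 fold changes of 0.10 and 0.11.

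Of the receptors and death signaling genes of IFN-γ, TNF and FasL, 11 of 14 were tested, 8 with a log2 fold change below 0. Tnfrsf1b, the second TNF receptor, averaged 206 ± 19.5 CPM untreated against 173 ± 29.0 CPM treated, a log2 fold change of -0.25 (95% interval -0.48 to -0.018). By edgeR's quasi-likelihood test its unadjusted p was 0.0358 and its adjusted p 0.9996. Jak1, a kinase below the IFN-γ receptor, had -0.16 (95% interval -0.33 to 0.018) and Ifngr1, which encodes a chain of that receptor, had -0.020. Of the IFN-γ response genes, 17 of 20 were tested, with a median of -0.040. Gbp7, a guanylate-binding protein, had 79.4 ± 18.4 and 57.2 ± 6.54 CPM, a log2 fold change of -0.38 (unadjusted p 0.0237, edgeR's quasi-likelihood test), and Gbp5 had -0.42 (95% interval -0.87 to 0.022). The immunoproteasome gene Psmb8 had a log2 fold change of 0.12.

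Of the transcription factors known to act on effector genes, 12 of 16 were tested, with a median of 0.0049. Stat4, which carries the IL-12 signal to Ifng, averaged 245 ± 26.8 CPM untreated against 207 ± 18.4 CPM treated, a log2 fold change of -0.24 (95% interval -0.44 to -0.036). By edgeR's quasi-likelihood test its unadjusted p was 0.0226 and its adjusted p 0.9996. Tbx21, which encodes the T-box factor T-bet, had 77.1 ± 22.7 and 96.8 ± 17.8 CPM, a log2 fold change of 0.25 (95% interval -0.069 to 0.58). Bhlhe40, a regulator of cytokine genes, and Id2, a brake on E proteins, had log2 fold changes of 0.022 and -0.036.

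**Figure D5:**
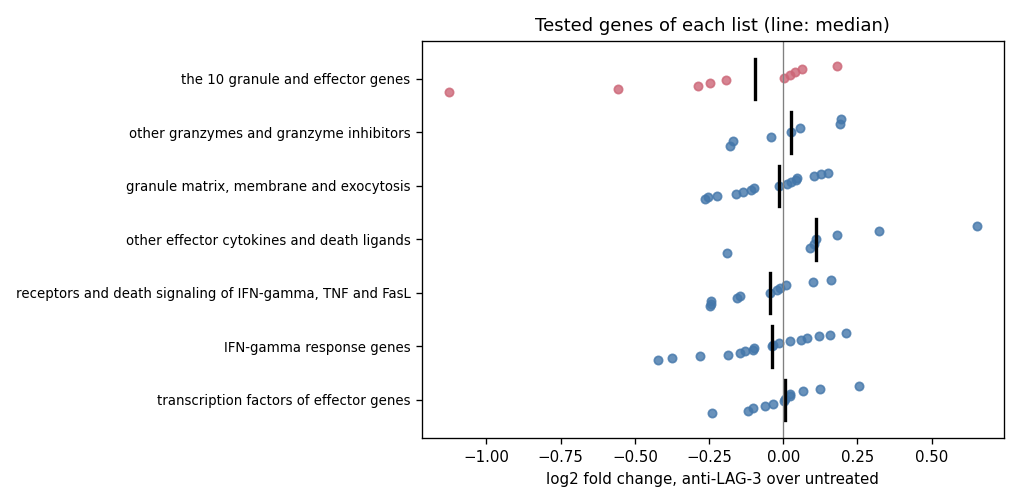
Log2 fold change of anti-LAG-3 over untreated (horizontal axis) for every tested gene of the 10 members (red) and of the 6 related lists (blue), a row per list, with a black line at the median of the list. The list medians lie between -0.095 and 0.11, and Gzma at -1.13 is the point farthest from 0.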

How the data were processed

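RNA-seq libraries of sorted tumor CD8+ T cells came from 5 untreated and 6 anti-LAG-3 mice. The authors trimmed reads with cutadapt, mapped them to GRCm38 reference RNA with Bowtie2 and deposited raw counts per gene symbol. The submitters' processing notes give cutadapt 4.1 and Bowtie2 2.4.5. The handling of multi-mapping reads and of strand is not given in the sources used here.

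Groups came from the labels. Genes were filtered with filterByExpr (minimum count 10, cutoff 17.7 CPM in 5 libraries, 15 counts in all) and TMM-normalized, and groups were compared with edgeR 4.0.16 (quasi-likelihood test, R 4.3.3, Benjamini-Hochberg over all tested genes, threshold 0.05). All 10 members passed the filter. The study's methods used edgeR's likelihood ratio test, here an alternative, beside DESeq2 1.42.0, limma 3.58.1 (voom), other scalings and filters, the barcode as a covariate, barcode 9 alone, depth as a covariate and leaving out each library. Member and related-gene CPM use TMM-scaled library sizes, and marker sums and 3-count floors use total counts.

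The members and lists were chosen with earlier results of these data known. All members are named. Of each related list, the 2 tested genes with the smallest p and the 2 with the highest mean CPM are named. The 5 genes most like the members have the highest r with the members' mean centred log2 CPM. Of markers, those at 0 and the highest of a list are named, and Havcr2, Ncr1 and Klrb1c were added after their values were seen. Of the genes this rule names, 2 are not reported here.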

Additional observations from a re-analysis of the deposited data

Results flagged for a closer look

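Of 20 sets of values tested, the 10 members in each of the 2 groups, 1 had a library far from the others, where chance alone gives about 1 in 20. Gzmk had 37.6 CPM in untreated replicate 2, from 12 counts, below the 57.8 to 66.0 CPM of the other 4 untreated libraries.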

How the results depend on the processing

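The count of members with an adjusted p under 0.05 was 0 in every setting run except that without a filter on low counts, where it was 1 (Gzma), and that of all tested genes was 0 or, without the filter, 7. The cause was not tested. With each library left out in turn, both counts were 0 throughout. Gzma and Tnf were not tested under the stricter filter (minimum count 20).

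The signs of Gzma, Gzmk, Gzmm, Tnf and Fasl were the same in every setting. The log2 fold change of Prf1 turned to -0.0024 with DESeq2, -0.00038 with voom, -0.0017 with RLE size factors, -0.00096 with total counts alone, -0.0029 with the stricter filter, -0.016 with the barcode as a covariate (where the 1 barcode 10 library has no weight), -0.015 in barcode 9 alone and -0.0058 with log2 total count as a covariate. Nkg7 turned to -0.0050 with the barcode as a covariate and Gzmb to 0.16 in barcode 9 alone. With 1 library left out the log2 fold change ran from -0.046 to 0.072 for Prf1, from -0.010 to 0.055 for Nkg7, from -0.025 to 0.17 for Ctsw and from -0.036 to 0.097 for Ifng. The Ctsw difference between barcodes was 0.38 with log2 total count as a further covariate, where 0 genes were called at the adjusted threshold, and 0.64 to 0.70 with 1 library left out. That comparison, its alternatives and a filter on mean CPM were chosen after seeing the data.

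Depth limits Gzma, with 2 to 51 counts per library, and Tnf, with 5 to 41, most. No paired analysis was possible because the groups share no library number. A fit with the S number of the titles as a term was not run.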
